A study of Mus musculus with 4 samples.

Results

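Of 78728 nuclei from mouse brain tissue, 68 (0.0864%, interval 0.0671 to 0.109%) were rich in transcripts of the MHC class II pathway and poor in transcripts of the resident brain cell types. They were chosen by UMIs, the unique molecular identifiers that count single transcripts in a nucleus. A member held at least 4 summed UMIs of Cd74, H2-Aa, H2-Ab1 and H2-Eb1. It held at most 1 UMI of the microglial genes P2ry12, Tmem119 and Siglech, at most 2 of the border macrophage genes Mrc1, F13a1, Cd163 and Lyve1, at most 1 of the neuronal genes Rbfox3, Slc17a7, Slc17a6, Gad1 and Gad2, and at most 1 of Mog, Aqp4 and Cldn5, which mark oligodendrocytes, astrocytes and endothelium. Class II levels in these nuclei are therefore a description and not a result.

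The nuclei came from male C57BL/6J mice aged 8 weeks injected at 4 weeks of age into the cisterna magna with an adeno-associated virus (AAV) of serotype 9. AAV-VEGF-C delivered the full-length mouse gene of VEGF-C, a vascular endothelial growth factor that acts on lymphatic vessels. AAV-CTRL carried mVEGFR3 4–7-Ig, a secreted fragment of VEGF receptor 3 fused to an immunoglobulin tail that does not bind VEGF-C, so both groups received a virus and a secreted protein. Brains of 5 mice were combined for each virus, no cell sort is described in the methods, and 1 library was made for each combination of AAV group and region label (cortex or striatum), with the same mice behind both regions. With 1 library per group no comparison has a replicate check and no test was run. Intervals are at 95%, cover counting error only and follow the value in parentheses. Values for libraries are given with the cortex label first and the striatum label after it, and within each label AAV-CTRL before AAV-VEGF-C. The question put to these data is which cells of the immune system the class II-selected nuclei resemble and how they are spread over regions and AAV groups.

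MHC class II molecules are dimers of an alpha and a beta chain that carry peptides from ingested proteins to the cell surface, where CD4 T cells read them. Cd74 encodes the invariant chain, which guides the new dimer to the endosome and blocks its groove until H2-DM loads the peptide. H2-Aa and H2-Ab1 encode the chains of the I-A molecule and H2-Eb1 the beta chain of I-E. In the healthy brain class II is carried mostly by dendritic cells, monocyte-derived cells, B cells and some macrophages of the meninges, choroid plexus and perivascular space, and little by resting microglia.

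The 3 H2 genes of the rule lie together on chromosome 17 in the GENCODE vM21 annotation (GRCm38): H2-Ab1 at chr17:34257689-34269419 on the plus strand, H2-Aa at chr17:34282744-34287823 on the minus strand and H2-Eb1 at chr17:34305867-34316674 on the plus strand. Class II genes share a promoter module whose Y box holds the letters ATTGG and binds NF-Y, while the coactivator CIITA acts through the factors bound to the module. The RefSeq promoter windows (GRCm38.p6, 250 bases before to 50 after the start site) are shown for H2-Aa and H2-Eb1, and for H2-DMb1 and H2-Ob, which were the other class II genes among the leading genes of the selected nuclei. Capitals mark ATTGG or, on the opposite strand, CCAAT.
H2-Aa (chr17:34287774-34288073, minus strand): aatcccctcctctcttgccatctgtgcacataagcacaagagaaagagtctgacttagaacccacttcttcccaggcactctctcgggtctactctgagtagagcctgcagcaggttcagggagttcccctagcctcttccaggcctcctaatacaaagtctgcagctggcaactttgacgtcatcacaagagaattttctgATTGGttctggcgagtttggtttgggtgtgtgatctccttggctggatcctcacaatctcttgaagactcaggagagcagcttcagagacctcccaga
H2-Eb1 (chr17:34305617-34305916, plus strand): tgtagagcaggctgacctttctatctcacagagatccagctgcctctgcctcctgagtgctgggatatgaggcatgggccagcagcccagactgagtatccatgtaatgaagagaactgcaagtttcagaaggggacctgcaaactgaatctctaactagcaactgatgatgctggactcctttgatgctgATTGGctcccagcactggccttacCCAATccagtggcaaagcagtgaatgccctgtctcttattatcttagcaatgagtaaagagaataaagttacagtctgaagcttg
H2-DMb1 (chr17:34152941-34153240, plus strand): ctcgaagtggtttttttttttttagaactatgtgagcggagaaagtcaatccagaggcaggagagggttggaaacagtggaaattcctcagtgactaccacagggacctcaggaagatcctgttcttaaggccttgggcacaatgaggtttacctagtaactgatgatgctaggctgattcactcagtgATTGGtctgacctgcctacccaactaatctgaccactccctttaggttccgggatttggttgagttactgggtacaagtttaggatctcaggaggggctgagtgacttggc
H2-Ob (chr17:34238655-34238954, plus strand): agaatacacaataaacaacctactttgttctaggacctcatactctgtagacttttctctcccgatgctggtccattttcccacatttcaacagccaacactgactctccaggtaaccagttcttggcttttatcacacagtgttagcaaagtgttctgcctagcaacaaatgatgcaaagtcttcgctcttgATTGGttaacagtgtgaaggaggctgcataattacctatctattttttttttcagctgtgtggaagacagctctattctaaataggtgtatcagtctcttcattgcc
On the coding strand ATTGG ended 43, 54, 56 and 52 bases before the start site of H2-Aa, H2-Eb1, H2-DMb1 and H2-Ob. Of the 9 windows held for 8 of the 9 classical and accessory H2 genes in the rule and loading lists, 8 contained it on 1 strand or the other, and of all 32851 windows 37.4% did. The longer form CTGATTGG, searched on both strands after these sequences had been seen, was in 4 of the 9 windows and in 4.10% of all windows. These matches are a description of the letters and not of factor binding.

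Before the nuclei are described, 2 features of the libraries have to be stated. First, the libraries labelled striatum held less, not more, of the striatal neuron list: 324, 390, 133 and 137 UMIs per 1000000 library UMIs (CPM). They held more of the fibroblast list (59.1, 52.5, 223 and 128 CPM) and of the 4 class II genes (10.05, 10.8, 28.1 and 22.3 CPM), so the region names are used as labels only. Second, 598 barcodes occurred in more than 1 library, but none of them was a member. The libraries had 17168 to 23724 nuclei and 63165470 to 78332657 UMIs, and 1 member, of the library labelled striatum AAV-CTRL, was called a doublet.

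The class II-selected nuclei were found in every library, with more of them under the striatum label. There were 7, 10, 34 and 17, which is 0.0408% (0.0164 to 0.0840), 0.0491% (0.0235 to 0.0903), 0.143% (0.0993 to 0.200) and 0.0973% (0.0567 to 0.156) of the nuclei in each library. The log2 ratio of AAV-VEGF-C over AAV-CTRL was 0.27 (−1.27 to 1.90) under the cortex label and −0.56 (−1.49 to 0.32) under the striatum label, so neither pair differed beyond counting error. Under AAV-CTRL the striatum-labelled library had the higher share, by 1.81 on the log2 scale (0.62 to 3.23), and under AAV-VEGF-C the interval of that difference included 0 (0.99, −0.22 to 2.28). The fibroblast and class II signals of the whole libraries moved with the striatum label too, and their part in this difference was not tested.

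The members were shallow nuclei. Their median was 1560 UMIs against 2550 over all nuclei, with medians of 1297, 1481, 1513 and 1667 by library, and 7 had under 1000 UMIs. Both cortex-labelled libraries lacked very deep members, whose highest totals were 2273 and 2048 UMIs. The striatum-labelled libraries reached 13274 and 24321, and all 10 members over 3000 UMIs were there. Those members held 55.3% of all member UMIs in the library labelled striatum AAV-CTRL and 52.9% under striatum AAV-VEGF-C, where a single nucleus held 46.3%. After each nucleus was thinned to 1000 UMIs, members had 818, 832, 819 and 826 detected genes at the median and other nuclei 741, 744, 761 and 765. Mitochondrial transcripts took 1.00%, 1.34%, 2.32% and 2.87% of member UMIs, above 0.722%, 0.966%, 0.909% and 1.12% over the whole libraries.

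Most members had UMIs of 3 or all 4 genes of the rule, which its minimum of 4 summed UMIs favours. All 4 genes were detected in 36 nuclei, 3 in 20, 2 in 10 and only 1 in 2. The summed class II count per nucleus was 5 to 42 with a median of 9 in cortex AAV-CTRL, 4 to 64 with a median of 22 in cortex AAV-VEGF-C, 4 to 44 with a median of 11 in striatum AAV-CTRL and 4 to 17 with a median of 10 in striatum AAV-VEGF-C. The ranges overlapped in all 4 libraries, and counts above 17 were absent from the last one. Per 10000 UMIs of the same nucleus the medians were 69.4, 161, 76.3 and 54.1.

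**Figure D1:**
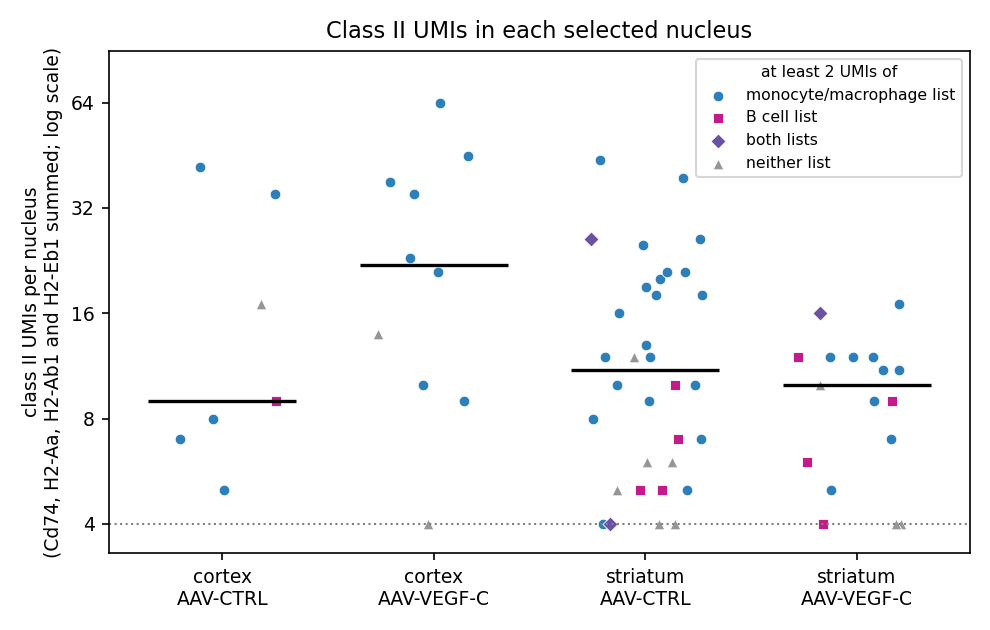
Each point is 1 selected nucleus; the vertical axis (log scale) is its summed UMIs of Cd74, H2-Aa, H2-Ab1 and H2-Eb1, the dotted line is the minimum of 4, the black bar is the library's median (9, 22, 11 and 10), and colour and shape give the marker lists of which it had at least 2 UMIs. B cell-list nuclei without the monocyte/macrophage list lie at 12 UMIs or lower, whereas counts up to 64 were reached by monocyte/macrophage-list nuclei.

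At the threshold, 9 nuclei that met every other limit had 3 class II UMIs and 8 members had 4. Of the former 6 carried at least 2 UMIs of pan-leukocyte genes and 1 of fibroblast genes, and of the latter 3 and 5.

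Cd74 gave 535 UMIs in 66 members, with 58, 132, 264 and 81 by library and 0 to 38 per nucleus. H2-Aa gave 172 UMIs in 57 members (21, 52, 75 and 24 by library) and H2-Eb1 176 UMIs in 57 (17, 47, 79 and 33). H2-Ab1 was detected least often, with 131 UMIs in 46 members (27, 32, 49 and 23). The members held 19.6% of the 5164 class II UMIs of the series, and by library 19.4%, 31.0%, 21.5% and 10.7%. Of the 216 nuclei with at least 4 class II UMIs, 148 failed another limit of the rule, namely the neuronal one in 107, the border macrophage one in 52, the glial and endothelial one in 46 and the microglial one in 18, with some failing several.

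The class II level of the members was set beside that of nuclei with at least 4 UMIs of the genes behind each upper limit. Members had 6397 CPM (6009 to 6803). Border macrophage-rich nuclei had 456 CPM (424 to 489; 339 nuclei), microglia-rich nuclei 47.8 CPM (41.2 to 55.2; 1436 nuclei) and glia- or endothelium-rich nuclei 38.1 CPM (35.4 to 40.9; 5039 nuclei). By library the microglia-rich level was 3.77, 9.06, 37.1 and 130 CPM. Of the 186 class II UMIs behind the pooled microglia-rich value, 143 were in striatum AAV-VEGF-C. They came from 19 of 347 nuclei there, of which 2 had at least 4. Neuron-rich nuclei, which should lack the pathway, had 7.92 CPM (7.503 to 8.35; 29674 nuclei), and 2.22% of them had a class II UMI at a median depth of 5358 UMIs. In microglia-rich nuclei the share was 3.13% (2.29 to 4.17) at a median depth of 1773 UMIs and in border macrophage-rich nuclei 20.9% (16.7 to 25.7) at 2021 UMIs. The share of nuclei that reached 4 class II UMIs was highest in the border macrophage-rich group, at 11.5% (39 nuclei). It was 0.516% (26) in glia- or endothelium-rich, 0.279% (4) in microglia-rich and 0.145% (43) in neuron-rich nuclei.

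**Figure D2:**
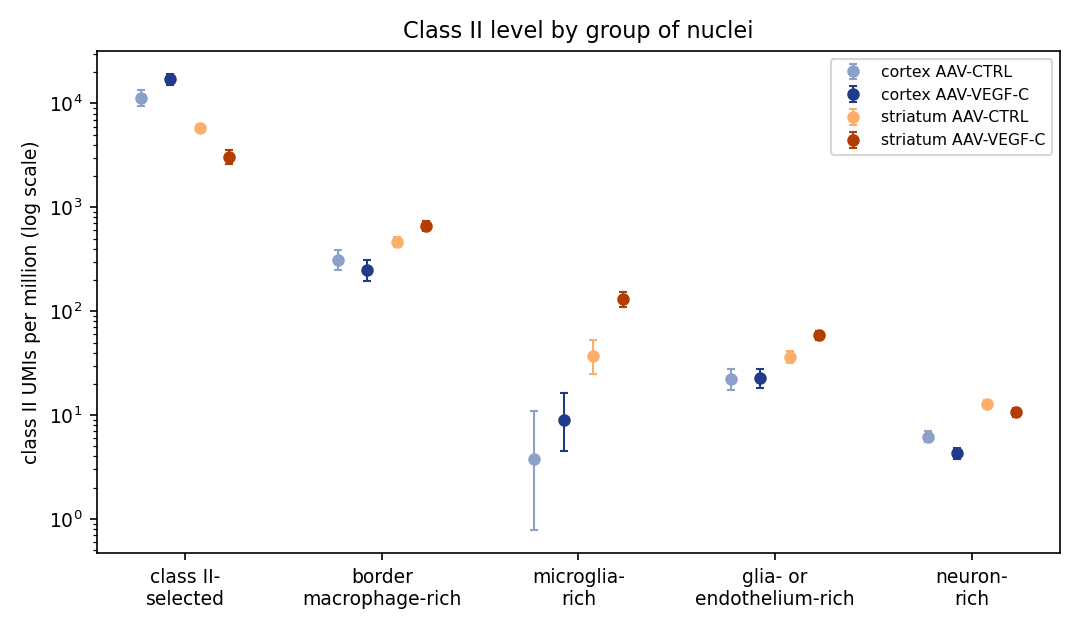
Class II CPM (log scale) with exact Poisson intervals in the selected nuclei and in 4 groups of nuclei rich in the genes of 1 upper limit, by library. Selected nuclei lie between 3066 and 17199 CPM, which the rule fixes; border macrophage-rich nuclei lie between 248 and 661, and neuron-rich nuclei between 4.28 and 12.8.

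Under the striatum label border macrophage-rich nuclei had 464 CPM (412 to 520) with AAV-CTRL and 661 CPM (590 to 739) with AAV-VEGF-C, while under the cortex label they had 314 CPM (247 to 393) and 248 CPM (196 to 308). The members, in contrast, had a lower class II level with AAV-VEGF-C under the striatum label, 3066 CPM (2611 to 3578) against 5847 CPM (5329 to 6403), and a higher one under the cortex label, 17199 CPM (15183 to 19408) against 11333 CPM (9419 to 13522). Of the member UMIs behind the 3066 CPM, 46.3% came from 1 nucleus. In members with at least 2 pan-leukocyte UMIs the levels were 9178 and 6636 CPM under the striatum label and 11333 and 18486 CPM under the cortex label. In cortex AAV-VEGF-C 1 nucleus held 64 of the 263 class II UMIs. These genes chose the members, and the intervals treat UMIs of 1 nucleus as independent. The intervals therefore do not measure the spread between nuclei or mice. The part of the rule's limits in these orders was not tested.

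Genes outside the rule marked most members as leukocytes of the myeloid line. Of the 68 members, 56 (82.4%, 71.2 to 90.5) had at least 2 UMIs of the pan-leukocyte list, compared with 9.93% of all other nuclei. By library these were 7 of 7, 9 of 10, 27 of 34 and 13 of 17. Arhgap15, a Rac GTPase-activating protein of haematopoietic cells, had UMIs in 53 members (20, 25, 57 and 44 UMIs by library). Ptprc, which encodes the leukocyte antigen CD45, had 55 UMIs in 26 members, Dock2, a guanine exchange factor for leukocyte migration, 53 UMIs in 30, and Laptm5, a lysosomal protein of blood cells, 44 UMIs in 26. The monocyte and macrophage list was met by 47 members (69.1%, 56.7 to 79.8) and by 3.997% of other nuclei.

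Among the 25 genes with the highest ratio to all other nuclei that were higher in every library, Ccr2 was the first that the rule had not used. It encodes the receptor through which monocytes follow the chemokine CCL2 (chr9:124101950-124113557, plus strand). Ccr2 gave 4, 13, 28 and 11 UMIs by library in 2, 6, 14 and 8 members, at most 5 in a nucleus. Its level was 353 CPM in the members and 0.82 CPM in all other nuclei, a log2 ratio of 8.74, against 2.83 CPM in microglia-rich and 22.8 CPM in border macrophage-rich nuclei. As the same nuclei were selected for the correlated class II genes, this is a description.

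Lyz2, the lysozyme of monocytes, macrophages and granulocytes, gave 4, 9, 51 and 7 UMIs in 3, 3, 21 and 6 members, so that the library labelled striatum AAV-CTRL held most of it. Unlike Ccr2, it was not particular to the members. Its level by library was 369, 589, 639 and 133 CPM in members and 326, 467, 339 and 255 CPM in border macrophage-rich nuclei. Cybb, the catalytic chain of the phagocyte NADPH oxidase, had 28 UMIs in 17 members and a log2 ratio of 6.76. The other leading genes included Mgl2 (7.47), a lectin of type 2 dendritic cells and some macrophages, Plbd1 (7.35), Fgr (6.81), a Src-family kinase of myeloid cells, Cd52 (6.27) and Itgb7 (6.32), an integrin chain. Each of these last 5 rested on 11 to 28 UMIs. Ly6c2 and Chil3, which mark classical monocytes, gave no UMI in any member, and Ms4a7 3 and Cd68 5.

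The microglial and border macrophage genes that the rule had not used were not absent. At least 2 UMIs of the former list were present in 25 members (36.8%; other nuclei 8.30%), with Cx3cr1 at 29 UMIs in 18 members, while Sall1, a microglial transcription factor, had 2 UMIs. Of the border macrophage list 37 members (54.4%; other nuclei 29.4%) had at least 2 UMIs, but Apoe supplied 244 of its 324 UMIs and is made by astrocytes as well. Maf, a transcription factor of macrophages and other cells, had 48 UMIs in 19 members. Pf4 had 3 UMIs, Stab1 9 and Folr2 1, and the 19 UMIs of Cbr2 came from 3 nuclei.

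A second, smaller set of members carried B cell genes. The B cell list was met by 12 members (17.6%, 9.5 to 28.8) and by 0.983% of other nuclei, and by library by 1, 0, 6 and 5. That is 1 of 17 cortex-labelled and 11 of 51 striatum-labelled members, 5.88% (0.149 to 28.7) and 21.6% (11.3 to 35.3), and these intervals overlap. All 12 genes of the list were detected. Ighm, the immunoglobulin mu chain, had 23 UMIs (2, 0, 10 and 11 by library), Bank1, a B cell adaptor, 20 (1, 0, 11 and 8), Pax5, the B cell identity factor, 11 (0, 0, 7 and 4) and Cd79b, a signalling chain of the antigen receptor, 11 (1, 0, 6 and 4). Igkc, the kappa light chain, had 30 UMIs in 10 members, all of which were B-list members. Of the precursor list 1 gene, Cd93, was detected, and Vpreb1, Igll1, Rag1, Rag2 and Dntt were at 0; so were the plasma cell genes Jchain, Mzb1, Tnfrsf17 and Igha.

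B-list and myeloid-list members overlapped in 3 nuclei. The remaining 9 B-list members (1, 0, 4 and 4 by library) and 44 myeloid-list members (5, 8, 22 and 9) are set side by side here on the genes of the rule, as a description. Among B-list members Cd74 took 74.6% of 67 class II UMIs, and 1 of 9 nuclei had UMIs of all 3 H2 genes. Among myeloid-list members Cd74 took 50.6% of 811, and 31 of 44 had all 3 H2 genes. The class II count per nucleus was 4 to 12 with a median of 7 in the former and 4 to 64 with a median of 12.5 in the latter, at median depths of 1329 and 1560 UMIs. UMIs of all 3 H2 genes are rarer by counting alone where class II UMIs are fewer, and the groups were not matched for this. Neither Ccr2 nor Lyz2 had a UMI in the 9 B-list members, and Igkc had none in the 44 myeloid-list members.

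Genes of conventional dendritic cells were detected in some of the members. The cDC2 list (Cd209a, Clec10a, Mgl2, Cd209d, Tnip3 and Cd300a) was met by 12 members (17.6%; other nuclei 0.147%), 10 of which also carried the monocyte and macrophage list. By library these were 2, 5, 4 and 1. Of the 12, 9 sat at the minimum of 2 list UMIs, and 4.41% of members held 3 or more. Their median class II count was 22.5 UMIs (4 to 64). Cd209a, a C-type lectin of monocyte-derived and type 2 dendritic cells, gave 2, 4, 1 and 0 UMIs by library. The cDC1 list was met by 15 members (22.1%; other nuclei 0.638%), but Wdfy4, which cross-presenting cDC1 need and B cells also express, supplied 44 of its 62 UMIs. Of the receptors that define cDC1, Xcr1 had 1 UMI and Clec9a 3. The genes that all conventional dendritic cells share were sparse, as Flt3 had 11 UMIs in 7 members, Zbtb46 9 in 8 and Itgax 1, and 4 members met that list.

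Other lymphoid and granulocyte lines were nearly absent. Cd3e, Cd3d, Cd3g, Trac and Trbc2 were at 0 in all 68 members, which allows up to 3 UMIs per gene at this depth. The T cell list was met by 4 members (5.88%; other nuclei 12.6%), mainly through Bcl11b, a gene that neurons express. Bcl11b held 12 of the list's UMIs, with Skap1 and Themis at 1 UMI each. No member met the NK and innate lymphoid list, and 1 each met the neutrophil, plasma cell, migratory dendritic cell and cell cycle lists. The migratory dendritic cell entry rested on 13 UMIs of the chemokine Ccl5 in 1 nucleus, with Ccr7 at 1 UMI and Ccl22 at 0.

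**Figure D3:**
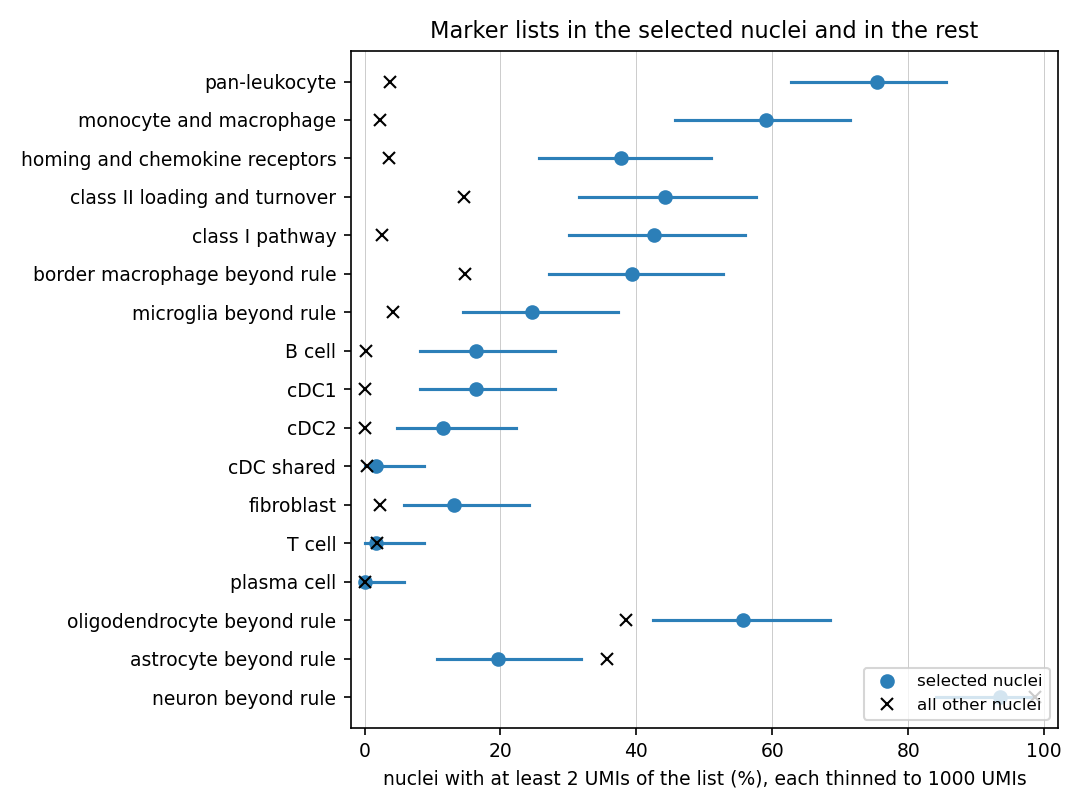
Share of nuclei with at least 2 UMIs of each marker list after every nucleus was thinned to 1000 UMIs, in 61 selected nuclei (circles, with exact binomial interval) and in all other nuclei (crosses). Pan-leukocyte genes reach 75.4% against 3.78% and monocyte and macrophage genes 59.0% against 2.33%, while astrocyte genes are at 19.7% against 35.7% and neuron genes at 93.4% against 98.7%.

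The rest of the antigen-presentation machinery was detected unevenly. Ciita, the class II coactivator, had 15 UMIs in 12 members (0, 4, 7 and 4 UMIs by library), and all 12 were myeloid-list members, so none was found in the 9 B-list members with their lower summed depth. The class II loading and turnover list was met by 43 members (63.2%; other nuclei 42.6%). H2-DMb1, a chain of the peptide-loading molecule, had 3, 6, 13 and 1 UMIs in 18 members, and its neighbour and near copy H2-DMb2 had 2, so the split of reads between them is uncertain. H2-Ob, a chain of the H2-DM inhibitor H2-O, had 13 UMIs in 11 members, 5 of them B-list and 5 myeloid-list. March1, the ubiquitin ligase that removes class II from the surface, had 41 UMIs in 31 members and Ctss, the protease that trims the invariant chain, 36 in 25 (9, 3, 9 and 15 by library).

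Of the class I list, 40 members (58.8%; other nuclei 8.24%) had at least 2 UMIs, led by B2m with 51 UMIs in 33 members, H2-D1 with 41 in 28 and H2-K1 with 40 in 23. Costimulatory genes were rare, with 2 members over the cut. Cd86 gave 5 UMIs, all under the cortex label, and Cd40 gave 6, all in the library labelled striatum AAV-CTRL. The interferon response list was met by 9 members (13.2%; other nuclei 2.90%), with Irf1 at 8 UMIs in 8 members. Of the VEGF receptors, Flt4, the receptor of VEGF-C, was at 0 UMIs in all members, and Nrp1, a coreceptor that dendritic cells also express, had 31 UMIs in 22 members (3, 5, 17 and 6 by library).

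Genes of the surrounding tissue were read in the same nuclei. The neuron list was met by 67 of 68 members, as by 99.9% of other nuclei, with Snap25 at 121 UMIs in 56 members. Oligodendrocyte genes were met by 51 members (75.0%; other nuclei 69.8%). Both shares were close to those of all other nuclei before thinning, whereas after thinning to 1000 UMIs the oligodendrocyte list was met by 55.7% of members and 38.4% of other nuclei. Free RNA in the droplets can give such UMIs to any nucleus, and its part was not tested.

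Fibroblast genes were different, being concentrated in few members. The list was met by 11 members (16.2%; other nuclei 4.88%; 0, 1, 7 and 3 by library). Over all 68 members Dcn, a proteoglycan of connective tissue, had 95 UMIs with up to 54 in a nucleus, and 92 of them were in 6 fibroblast-list members. Col1a2, a chain of type I collagen, had 70 UMIs with up to 28 in a nucleus, all in fibroblast-list members. In the 11 fibroblast-list members the median depth was 3944 UMIs and the median class II count 5. In all, 8 members had no UMI of any pan-leukocyte gene, 4 in each striatum-labelled library. Of these 8, whose median depth was 4560 UMIs, 6 met the fibroblast list and 3 the mural list. The deepest, with 24321 UMIs, held 159 UMIs of Myh11, the smooth muscle myosin. For these nuclei the label of antigen-presenting cell rests on the class II genes of the rule and not on leukocyte genes.

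The members were clustered on genes that excluded those of the rule, and 4 clusters were found at the main resolution. Cluster 1 held 30 members (4, 3, 16 and 7 by library) and was monocyte/macrophage-like. Its 10 leading genes included Csf1r, the receptor of colony-stimulating factor 1, C1qb, a complement chain, and Fyb, an adaptor of haematopoietic cells, but also Agbl4 and Id4, and 8 of 16 monocyte and macrophage markers and 5 of 8 microglial markers were raised in it by at least 2-fold. Csf1r is in both of these lists. Monocytes, macrophages and microglia were not told apart in cluster 1. Cluster 4 held 8 members (1, 0, 3 and 4), was led by Pou2af1, Fcer2a, Cxcr5, Ly6d and Igkc, had 9 of 12 B cell markers and was B cell-like; 7 of its 8 members were B-list only.

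Cluster 3 held 15 members (2, 6, 6 and 1). Itgb7, Gpr141, Cd200r1 and Il1rl1 were among its leading genes. Raised in it by at least 2-fold were 5 of 6 cDC2 markers and 5 of 16 monocyte and macrophage markers. So were 2 of 6 shared cDC markers and 2 of 7 cDC1 markers, and 14 of its members were myeloid-list members. It is called cDC2-like for the cDC2 list alone, although no cDC2 marker was among the 10 leading genes. The 5 raised cDC2 markers had 3 to 16 UMIs each over all 68 members. The cDC2 list was met by 12 of the 68 members, fewer than the 15 of cluster 3. The name therefore describes summed counts and does not hold for each nucleus of the cluster. Dendritic cells and monocyte-derived cells were not told apart in it. All 4 genes of the rule were also raised in cluster 3, but they are not used for the name. Its class II count was the highest at the median, 25 UMIs (7 to 45) or 156 per 10000, against 11.5 in cluster 1, 7 in cluster 2 and 9 in cluster 4. Cluster 2 held 15 members (0, 1, 9 and 5), was led by Mgp, Bnc2, Slc47a1, Col5a2 and Col1a1 with 5 of 6 fibroblast markers and was fibroblast-like at a median depth of 3581 UMIs. It held 7 of the 8 members without pan-leukocyte UMIs but also 6 myeloid-list members, and the nucleus with 64 class II UMIs was in it. The fibroblast list was met by 11 of the 68 members, fewer than the 15 of cluster 2, so this name does not hold for each of its nuclei either.

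**Figure D4:**
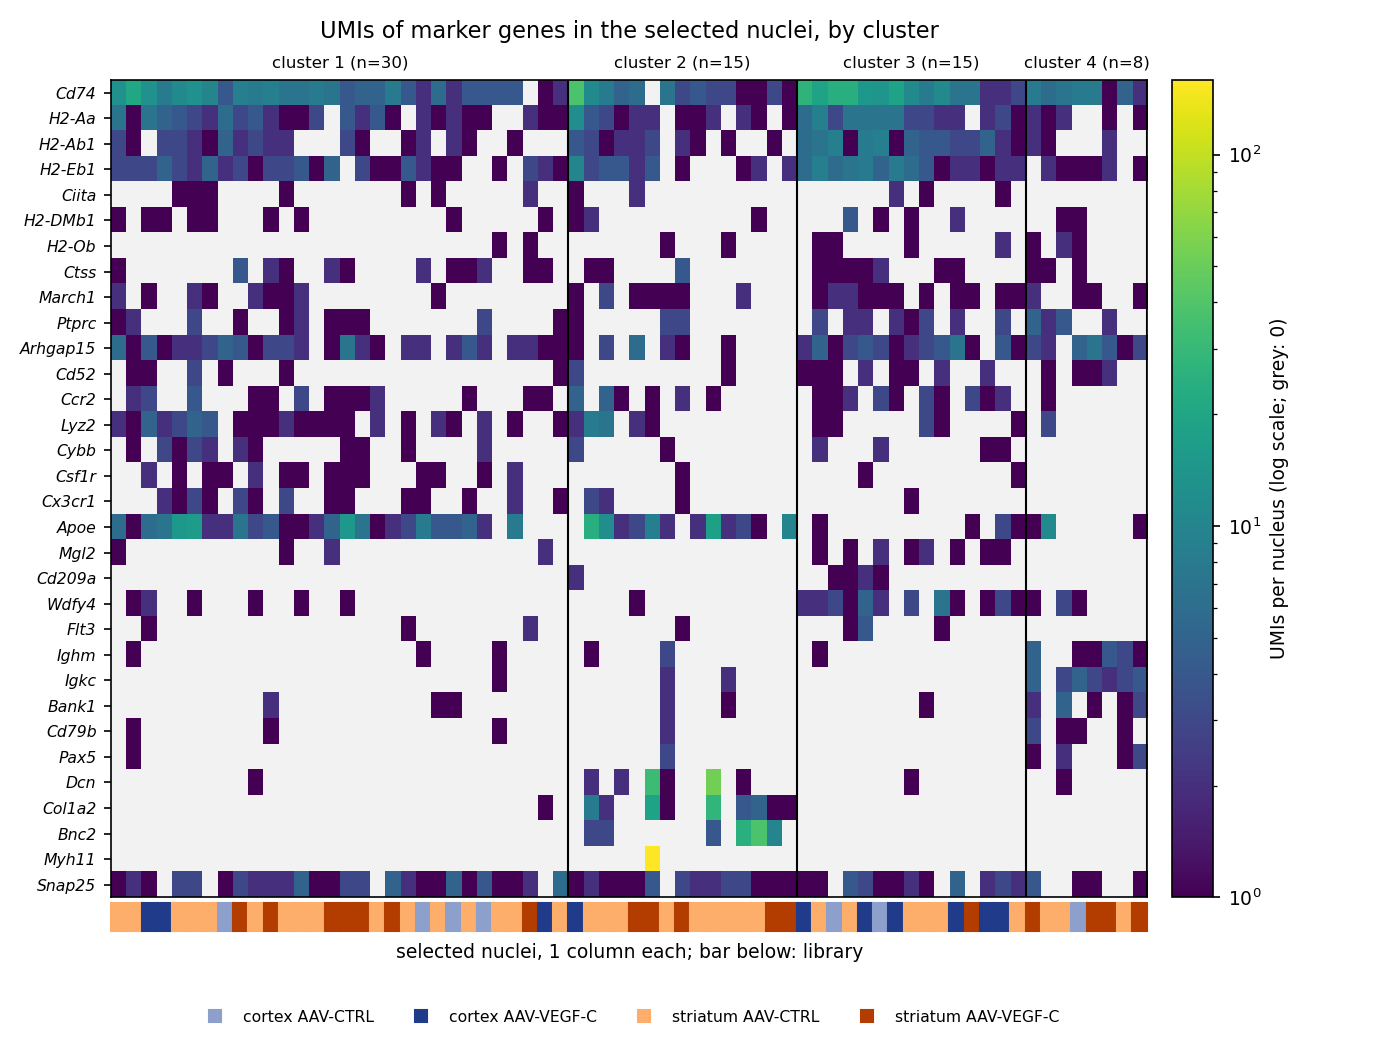
UMIs per nucleus (colour, log scale; grey is 0) of 32 genes in the 68 selected nuclei, 1 column each, ordered by cluster and then by class II count, with the library below. Igkc, Ighm and Bank1 are concentrated in cluster 4, Dcn, Col1a2 and Bnc2 in cluster 2, and Lyz2, Csf1r and Cx3cr1 mostly in cluster 1, while Snap25 runs through all clusters.

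The clusters were not spread evenly over the libraries. Under the cortex label 8 of 17 members were in the cDC2-like cluster 3 and 7 in cluster 1, and under the striatum label 23 of 51 were in cluster 1, 14 in cluster 2, 7 in cluster 3 and 7 in cluster 4. With 1 library per group and clusters of 8 to 30 nuclei, these counts describe the libraries. Between resolutions of 0.4 and 1.2 the number of clusters went from 2 to 8.

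Between the AAV libraries, gene levels in the members were compared as CPM of their summed UMIs, for genes with at least 20 UMIs over the pair. Under the cortex label 72 genes could be read. Of these 7 (9.72%) were at least 2-fold higher with AAV-VEGF-C and 6 (8.33%) at least 2-fold lower. The striatum-labelled pair gave 1454 readable genes, with 154 (10.6%) at least 2-fold higher and 192 (13.2%) at least 2-fold lower. The median log2 ratio over the genes read was −0.04 and −0.06. A count of genes past a fold includes those moved by counting error, and the counting interval lay away from 0 for 13 genes under the cortex label and 289 under the striatum label.

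Under the cortex label the 4 class II genes had a median log2 ratio of 0.75, with none past 2-fold. Cd74 was at 5344 CPM with AAV-CTRL and 8632 CPM with AAV-VEGF-C, a log2 ratio of 0.69 (0.24 to 1.16). H2-Aa was 0.81 higher (0.06 to 1.62) and H2-Eb1 0.97 (0.15 to 1.87), while H2-Ab1 had a ratio of −0.25 (−1.03 to 0.55). Under the striatum label the median was −0.85 and 2 of the 4 were past 2-fold, Cd74 at −1.10 (−1.48 to −0.74) and H2-Aa at −1.04 (−1.77 to −0.36), with H2-Eb1 at −0.65 (−1.29 to −0.05) and H2-Ab1 at −0.49 (−1.27 to 0.26). These intervals treat UMIs as independent, although those of 1 nucleus are not, and the genes were used to choose the nuclei. The makeup of the libraries differed as well: cluster 3, with a median of 25 class II UMIs, held 2 of 7 and 6 of 10 cortex-labelled and 6 of 34 and 1 of 17 striatum-labelled members, and its part in these ratios was not tested.

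The size of the striatum-labelled ratios depended on which members were kept. In the 56 members with at least 2 pan-leukocyte UMIs (7, 9, 27 and 13), an alternative chosen after seeing the data, the ratio of Cd74 was −0.62 (−1.03 to −0.23), of H2-Aa −0.49 (−1.30 to 0.26), of H2-Eb1 −0.27 (−0.98 to 0.41) and of H2-Ab1 −0.06 (−0.92 to 0.75). Leaving out the members over 3000 UMIs instead gave −0.98 for Cd74 and −0.94 for H2-Aa, and giving each nucleus the same weight −0.76 and −0.64. With at least 6 class II UMIs required the ratios were further from 0, at −1.53 for Cd74, −1.63 for H2-Aa, −1.30 for H2-Eb1 and −0.94 for H2-Ab1. Under the cortex label the restriction to members with pan-leukocyte UMIs gave 0.81 for Cd74, 0.91 for H2-Aa, 1.04 for H2-Eb1 and −0.12 for H2-Ab1. In the nuclei with pan-leukocyte UMIs the median class II count was 9, 23, 12 and 11 UMIs, with 5 to 42, 9 to 64, 4 to 44 and 4 to 17 across nuclei, so the ranges overlapped within each pair.

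**Figure D5:**
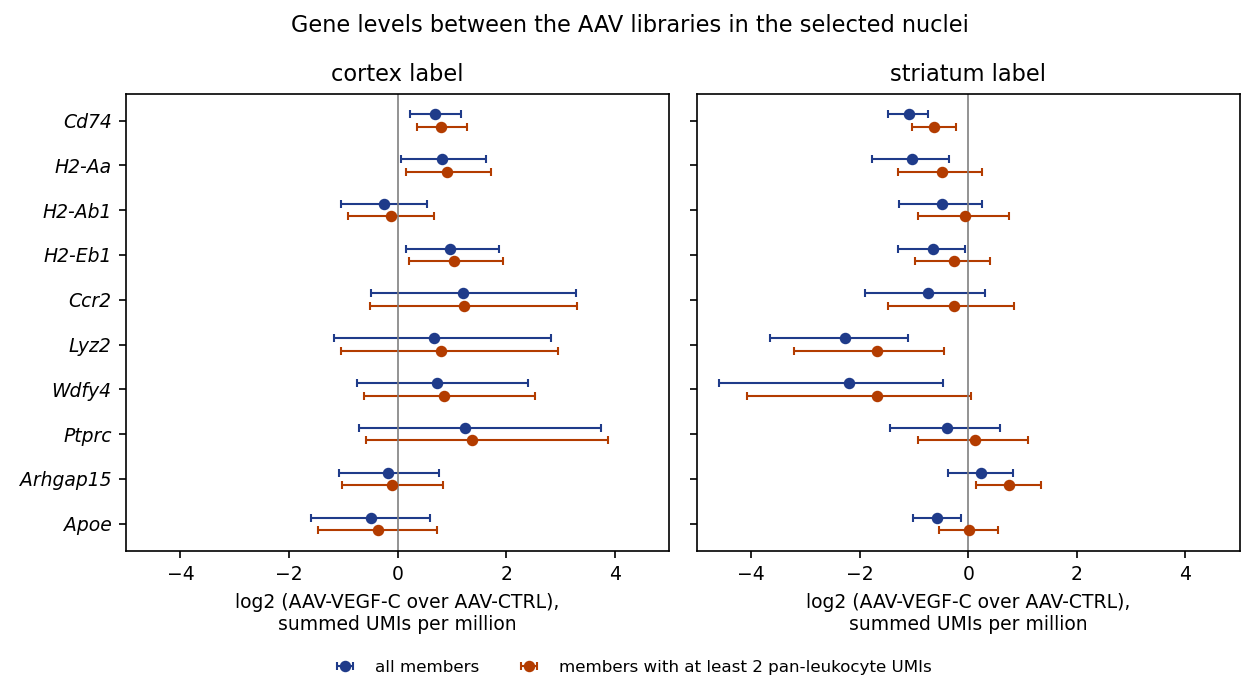
Log2 ratio of CPM, AAV-VEGF-C over AAV-CTRL, for 10 genes in the selected nuclei of each region label, with exact counting intervals, over all members and over members with at least 2 pan-leukocyte UMIs. Cd74 lies above 0 under the cortex label (0.69) and below it under the striatum label (−1.10), and for Ccr2 and Ptprc every interval includes 0.

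Of the monocyte and macrophage list 2 genes, Lyz2 and Ccr2, could be read under the striatum label. Lyz2 had 51 UMIs in 21 of 34 members with AAV-CTRL and 7 UMIs in 6 of 17 with AAV-VEGF-C, a log2 ratio of −2.26 (−3.65 to −1.11), or −1.69 (−3.21 to −0.45) in members with pan-leukocyte UMIs. Under the cortex label it had 4 and 9 UMIs (0.68, −1.17 to 2.83). Wdfy4 had 21 and 3 UMIs under the striatum label (−2.20, −4.59 to −0.46), and the interval in members with pan-leukocyte UMIs reached 0.06. Ccr2 had a log2 ratio of 1.21 (−0.49 to 3.28) under the cortex label and −0.74 (−1.90 to 0.31) under the striatum label, so a difference was not detectable at this depth.

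Arhgap15, in contrast, had a ratio near 0 under both labels, −0.17 (−1.08 to 0.75) and 0.23 (−0.37 to 0.82), although among members with pan-leukocyte UMIs the latter was 0.75 (0.15 to 1.34). Of the pan-leukocyte list 6 genes could be read under the striatum label, with none past 2-fold higher and 2 lower, Dock2 (−1.04) and Ikzf1 (−1.24). Of the class I list 4 genes could be read there, with none past 2-fold higher and 2 lower, B2m (−1.03) and H2-K1 (−1.23). The intervals of these 4 genes included 0, and in members with pan-leukocyte UMIs the ratios of Dock2, B2m and H2-K1 were −0.52, −0.81 and −0.05. Of the class II loading list 4 genes could be read, with none lower and 1 higher, Ctss (1.34, 0.06 to 2.72). In members with pan-leukocyte UMIs the ratio of Ctss was 2.03 (0.70 to 3.47) under the striatum label. In such members under the cortex label it was −2.54 (−5.79 to −0.27), on 9 and 2 UMIs. Against a background of 10.6% higher and 13.2% lower, lists of 4 to 6 readable genes are too short to be read as a result.

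Under the striatum label the highest ratios came mostly from 1 nucleus each, and so did some of the lowest. Carmn, Myh11 and Pln had 22, 159 and 63 UMIs with AAV-VEGF-C, each in 1 nucleus, and none with AAV-CTRL. Sorbs2, Lmod1 and Pde3a had 115 of 121, 22 of 23 and 43 of 46 UMIs in 1 nucleus. Except for Sorbs2, which is expressed more widely, these are genes of smooth muscle or heart muscle. Over the whole striatum-labelled libraries Sorbs2 was at 352 CPM with AAV-CTRL and 337 CPM with AAV-VEGF-C, and Myh11 at 13.1 and 15.3 CPM. The lowest, with none with AAV-VEGF-C, were Kcnq5, Mecom, Oxt, Pde10a, Scgb1c1 and Sned1, with 22 to 81 UMIs in 4 to 10 nuclei with AAV-CTRL, and Wfdc2, with 25 UMIs in 2 nuclei, 23 of them in 1. These 7 tied, and as the rule takes 6, in order of name, Wfdc2 was added after its values were seen. Oxt, which encodes oxytocin, had 75 of 81 UMIs in 1 nucleus, and Scgb1c1, a secretoglobin of nasal mucosa, 28 of 31. Others were more spread, with at most 10 of 26 UMIs in 1 nucleus for Pde10a, 9 of 26 for Sned1 and 16 of 31 for Kcnq5. In the whole striatum-labelled libraries Scgb1c1 was at 59.4 CPM with AAV-CTRL and 1.52 CPM with AAV-VEGF-C.

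Under the cortex label the highest were Calm2 (5 and 36 UMIs), Rpl37 (3 and 17), Dock10 (7 and 30), Pid1 (13 and 46), Fth1 (8 and 28) and Rps29 (11 and 32). Dock10, an exchange factor of lymphocytes and neurons, had UMIs in 3 of 7 and 8 of 10 members, with a log2 ratio of 1.605 (0.39 to 3.04). Fth1, the ferritin heavy chain, had them in 6 and 8 members at 1.31 (0.14 to 2.66). The lower genes were Tnr, Nfasc, Clstn1 and Malat1, and 34 of the 43 UMIs of Tnr, a matrix protein of oligodendrocyte precursors, came from 1 nucleus.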

How the data were processed

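Nuclei of 4 pooled brain samples were captured with the 3′ v3 chemistry of 10x Genomics before sequencing. UMI counts per gene and nucleus were deposited, made by the authors with Cell Ranger (5.0.1 per the file headers, 5.1.1 in the submitters' processing notes) on mm10; whether intronic reads were counted is not given in the sources used here. The study's methods discarded nuclei under 200 UMIs and clusters averaging under 1000 counts, and the 78728 nuclei they retain equal the deposited barcodes, whose lowest total was 719 UMIs. No further filter was applied here.

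The selected nuclei, the marker lists and the tests were chosen with earlier results of these data known. Counts were read with SciPy 1.17.1 and clustered with Scanpy 1.11.5 and leidenalg 0.10.2 (counts scaled to 10000, 2000 variable genes without those of the rule, 20 components, 15 neighbours, resolution 0.8). A list was met with at least 2 summed UMIs. Clusters were named from the lists, and names may differ from those of the study. Doublets were called by Scrublet at an expected rate of 8%, which marked 4.49, 5.95, 7.95 and 4.31% of nuclei; called nuclei were kept. For shares at matched depth nuclei were thinned to 1000 UMIs, leaving out 642, 709, 1537 and 425 shallower nuclei. CPM are UMIs per 1000000 summed UMIs. Intervals are exact (Poisson, Clopper-Pearson, conditional binomial) at 95%. Named genes were the genes of the rule, the 25 leading genes detected in at least 10% of members and higher in all 4 libraries, genes of the lists, the 6 highest and 6 lowest ratios per label with at least 20 UMIs and an interval away from 0, and 10 leading genes per cluster; the ratio step was tested on simulated data. Alternatives covered the class II minimum, the upper limits, doublets, depth, the list cut, the resolution, the UMI minimum and the scaling. Some genes of the lists are not reported here.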

Additional observations from a re-analysis of the deposited data

Results flagged for a closer look

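In the class II-selected nuclei 3 genes of the rule lay on opposite sides of 0 under the 2 region labels, beyond counting error in each: Cd74 with log2 ratios of 0.69 (cortex label) and −1.1 (striatum label), H2-Aa with 0.81 and −1.04, and H2-Eb1 with 0.97 and −0.65. The difference between the labels was not tested, since each group is 1 library, and these genes chose the nuclei. In members with at least 2 pan-leukocyte UMIs the values were 0.81 and −0.62 for Cd74, 0.91 and −0.49 for H2-Aa and 1.04 and −0.27 for H2-Eb1, with the striatum-labelled intervals of the last pair of genes including 0.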

How the results depend on the processing

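No paired analysis was possible because each group has 1 library and the results come from no test. Without the upper limits of the rule the shares per library were 0.146%, 0.147%, 0.409% and 0.366%, outside the counting interval of the reported shares; under every other setting tried (class II minimum of 3 or 6, doublets left out, thinning, leukocyte genes required, members over 3000 UMIs left out) shares and their log2 ratios stayed within it. With at least 1 list UMI the monocyte and macrophage, cDC2 and cDC1 lists were met by 83.8%, 29.4% and 44.1% of members, and with at least 3 the cDC2 and cDC1 lists by 4.41% and 11.8%. Without the members over 3000 UMIs, a setting chosen after seeing the data, the pan-leukocyte list was met by 91.4% and the fibroblast list by 5.17%. At a resolution of 0.4 there were 2 clusters, with 11 of 12 B-list members in 1 of them, and at 1.2 there were 8.

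The counts of genes past 2-fold depended on the UMI minimum. With at least 10 UMIs they were 73 higher and 50 lower of 403 genes read under the cortex label. Under the striatum label they were 443 and 614 of 3676. With at least 1 UMI they were 3335 and 2459 of 7944 under the cortex label. Under the striatum label they were then 2998 and 4395 of 13470. More genes were read at each lower minimum, and the share of them past 2-fold rose as well. In members with at least 2 pan-leukocyte UMIs 3 of 65 genes read were lower under the cortex label. Under the striatum label 42 were higher and 54 lower of 466. Without members over 3000 UMIs the latter were 26 and 40 of 422. No ratio of a rule gene with an interval away from 0 changed sign under any of these settings. Depth limits these comparisons: with 7 to 34 members per library and a median of 1560 UMIs each, a gene with few UMIs cannot be told from counting error, and the spread between mice was not measured.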
